A study of Homo sapiens with 13 samples.

Results

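Voltage-gated and related cation channel genes were followed on 13 arrays of HEK293T cells, a line derived from human embryonic kidney and expressing SV40 large T antigen. Members were the genes of probes whose symbol in the array files begins with KCN, SCN or CACN and has the form of a potassium, sodium or calcium channel subunit. The rule found 133 of the 21766 genes named on the array, on 173 probes, of which 93 were potassium, 14 sodium and 26 calcium channel genes. On each array, treated and control RNA were hybridised together in 2 dyes, Cy3 and Cy5. UNC0638, which blocks the enzymes G9a and GLP that methylate histone H3 on lysine 9, was used at 1 µM for 48 h with DMSO as its control (5 biological replicates, 7 arrays). WIZ siRNA targets a zinc finger protein of the G9a and GLP complex, and G9a siRNA targets the G9a gene, EHMT2. Both siRNAs acted for 72 h and had control siRNA as their reference RNA, with 2 biological replicates on 4 arrays for WIZ siRNA and 2 on 2 arrays for G9a siRNA. DharmaFECT 4 was the transfection reagent. Whether 1 control RNA served both siRNAs is not stated in the labels.

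Voltage-gated channels open when the membrane potential changes. Potassium channels repolarise the membrane and set its resting potential, sodium channels carry the rapid upstroke of action potentials, and calcium channels couple voltage to secretion, contraction and transcription. Each pore-forming subunit works with auxiliary subunits that set its trafficking and gating. Most of these genes are known from neurons, muscle and heart, and HEK293T cells are widely used as a host for expressing cloned channels because their own currents are small. G9a and GLP place the repressive dimethyl mark on histone H3 lysine 9, and WIZ takes part in the complex with them.

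Values are given as the log2 of treated over control RNA, averaged over the 2 dye orientations where a replicate had both. A gene is represented by its brightest probe. Of the 133 genes, 112 had a probe well above background on enough arrays to be tested (75 potassium, 12 sodium, 25 calcium) and 21 were not tested. Genes not tested include SCN2A, KCNA4 and CACNA2D4. Among all members, 2 were never well above background in either RNA of any array. Tests are limma's, with Benjamini-Hochberg adjustment over all 28923 features and a threshold of 0.05. The labels call the replicates biological but do not say whether they were separate cultures, so p-values measure the spread between these samples.

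The files do not state which scanner channel holds which dye. Channel 2 was read as Cy5 on every array because WIZ and EHMT2 are then lower on the arrays of their own siRNA, so that their fall is no check of the labels. The direction of every UNC0638 value rests on the same reading, with no targeted gene to check it (EHMT2 averaged -0.175 with UNC0638, adjusted p = 0.267). Under that reading WIZ was at -2.33, -2.01, -2.20 and -1.93 on the 4 WIZ siRNA arrays, and EHMT2 was at -1.67 and -1.65 on the 2 G9a siRNA arrays. All 10 HEK293T markers (such as PAX2, EYA1, VIM and NEFM) were above background on all 13 arrays. Of 16 markers of blood, fibroblasts, liver, glia, muscle and adult kidney, some, such as COL1A1, MBP and CKM, also were, while ALB, DCN, MYH6 and APOA2 were above background on 3 to 5 arrays. Over all features, which are not independent, replicate 3 of UNC0638 correlated with the G9a siRNA replicates at r = 0.876 and 0.843. Its r was 0.663 with UNC0638 replicate 4, 0.164 with replicate 1, 0.177 with replicate 2 and 0.135 with replicate 5. Replicate 4 correlated with the G9a siRNA replicates at 0.50 and 0.499, and these likenesses touch every comparison below that uses replicates 3 and 4. The arrays also fell into 2 sets by their background, UNC0638 replicates 1 and 2 with all WIZ siRNA arrays, and UNC0638 replicates 3 to 5 with all G9a siRNA arrays. Every array of the second set carried the treated RNA in Cy5, so that for G9a siRNA the dye and the array set cannot be told apart from the treatment.

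A minority of channel genes passed in each treatment. UNC0638 changed 15 of the 112 tested members (9 higher, 6 lower, 13.4%), against 3.65% of all features (1.75% higher, 1.9% lower). WIZ siRNA changed 4 (all lower, 3.57%), against 0.615% of all features (0.0795% higher, 0.536% lower). G9a siRNA changed 25 (9 higher, 16 lower, 22.3%), against 33.2% of all features (15% higher, 18.2% lower). The median member stood at -0.011 with UNC0638, beside -0.012 over all features. With WIZ siRNA these medians were -0.010 and 0.012, and with G9a siRNA -0.027 and -0.008. In all, 38 members passed in at least 1 treatment, of which 32 passed in 1 only, 6 in 2 and none in all 3, while 74 passed in none.

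**Figure D1:**
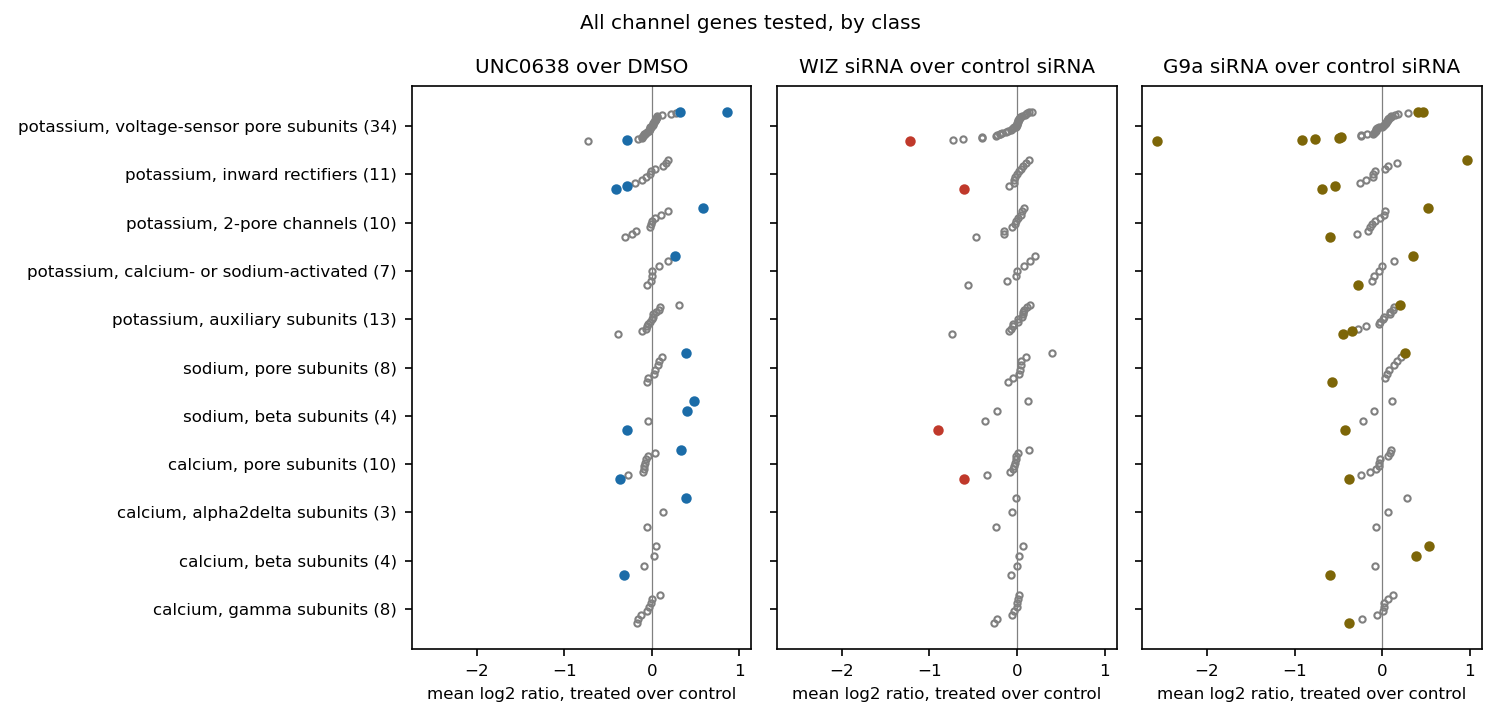
Mean log2 ratio of treated over control RNA (x axis) for each of the 112 channel genes tested, in rows by class and subunit type, with the number of genes in brackets. Filled points passed an adjusted p of 0.05 in limma and open grey points did not. Filled points lie on both sides of 0 under UNC0638 (9 higher, 6 lower) and G9a siRNA (9 higher, 16 lower), and below 0 under WIZ siRNA (4 lower).

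Among 34 tested potassium channel genes with a voltage sensor, 3 passed with UNC0638 (2 higher, 1 lower), KCNH2 and KCNQ1 among them. KCNH2, the cardiac repolarising channel known as hERG, was at 0.27, 0.23, 0.45, 0.45 and 0.20 in UNC0638 replicates 1 to 5, a mean of 0.32 ± 0.12 (SD, n = 5; adjusted p = 0.0237). Its probe lies at chr7:150642092-150642151 on the minus strand of build 37.1, and a further KCNH2 probe averaged 0.04 ± 0.22. KCNQ1, a pore subunit of cardiac and epithelial potassium currents, was at -0.48, -0.17, -0.22, -0.27 and -0.27 (mean -0.28 ± 0.12, adjusted p = 0.0191).

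The other potassium classes gave 4 further changes with UNC0638. KCNK12, a 2-pore channel subunit, was at 0.69, 0.75, 0.19, 0.56 and 0.76, with replicate 3 the lowest (mean 0.59 ± 0.24, adjusted p = 0.0042). KCNMA1, the pore of the large-conductance calcium-activated channel, averaged 0.26 ± 0.12 (adjusted p = 0.0284), with replicate 3 at 0.47 and the others between 0.17 and 0.25. Further KCNMA1 probes were closer to 0, at 0.03 to 0.08. Among inward rectifiers, which pass potassium more easily into the cell than out of it, KCNJ12 was lower in all 5 replicates, between -0.48 and -0.31 (mean -0.41 ± 0.07, adjusted p = 0.00213). KCNJ14 lay between -0.50 and -0.14 (mean -0.29 ± 0.15, adjusted p = 0.0367). KCNJ12 has a near-identical paralogue, KCNJ18, so that its probe may read both. Of the 13 auxiliary potassium subunits tested, 0 passed with UNC0638 in limma, and 2 were at an unadjusted p under 0.05.

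Of the 12 sodium channel genes tested, UNC0638 raised 3 and lowered 1. SCN8A, a pore subunit found at the initial segment and nodes of axons, was at 0.34, 0.34, 0.54, 0.40 and 0.34 (mean 0.39 ± 0.09, adjusted p = 0.00299). Its control RNA was above background on 5 of 7 arrays, and a further SCN8A probe averaged 0.10 ± 0.09. The beta subunits, single-pass proteins that modulate gating and cell adhesion, held the other 3 calls among 4 genes. SCN3B was at 0.49, 0.64, 0.28, 0.25 and 0.74 (mean 0.48 ± 0.21, adjusted p = 0.00775). SCN2B was at 0.47, 0.66, 0.44, -0.02 and 0.46, the only 1 of the 15 called members whose replicates did not share a sign (mean 0.40 ± 0.25, adjusted p = 0.0396). SCN4B was the lowered one, between -0.43 and -0.17 (mean -0.28 ± 0.11, adjusted p = 0.042).

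Calcium channel genes gave 4 calls of 25 with UNC0638. CACNA1B, the pore of the N-type channel of presynaptic terminals, was at 0.48, 0.31, 0.23, 0.40 and 0.21 (mean 0.33 ± 0.11, adjusted p = 0.0106), although a further CACNA1B probe averaged -0.10 ± 0.11. CACNA2D2, an alpha2delta subunit that promotes surface expression of the pore, lay between 0.23 and 0.63 (mean 0.40 ± 0.15, adjusted p = 0.00919). CACNA1H, a pore of the T-type channels that open at low voltage, averaged -0.36 ± 0.19 (adjusted p = 0.0197). On the dye-swapped arrays CACNA1H read 0.23 and 0.31 with the UNC0638 RNA in Cy3, against -0.70 and -0.51 with it in Cy5. CACNB3, a cytoplasmic beta subunit, averaged -0.32 ± 0.13 (adjusted p = 0.0161). With the dye effect estimated from the swapped pairs subtracted, CACNA1H stood at -0.18 (adjusted p = 0.151) and CACNB3 at -0.19 (adjusted p = 0.225), and neither passed.

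KCNK12, SCN8A and KCNJ12 kept their call with UNC0638 under every alternative run on them (15 to 16 each), while SCN4B lost it under 13 of 16 and KCNJ14 under 11 of 16. Without replicate 3 of UNC0638, 10 of the 15 members still passed, and no other member did. Among members that did not pass with UNC0638, CACNA1C, an L-type calcium channel pore, was at -0.08, -0.15, -0.44, -0.22 and -0.45 (mean -0.27 ± 0.17, adjusted p = 0.0555) and SCN4A averaged 0.12 ± 0.19 (adjusted p = 0.345).

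**Figure D2:**
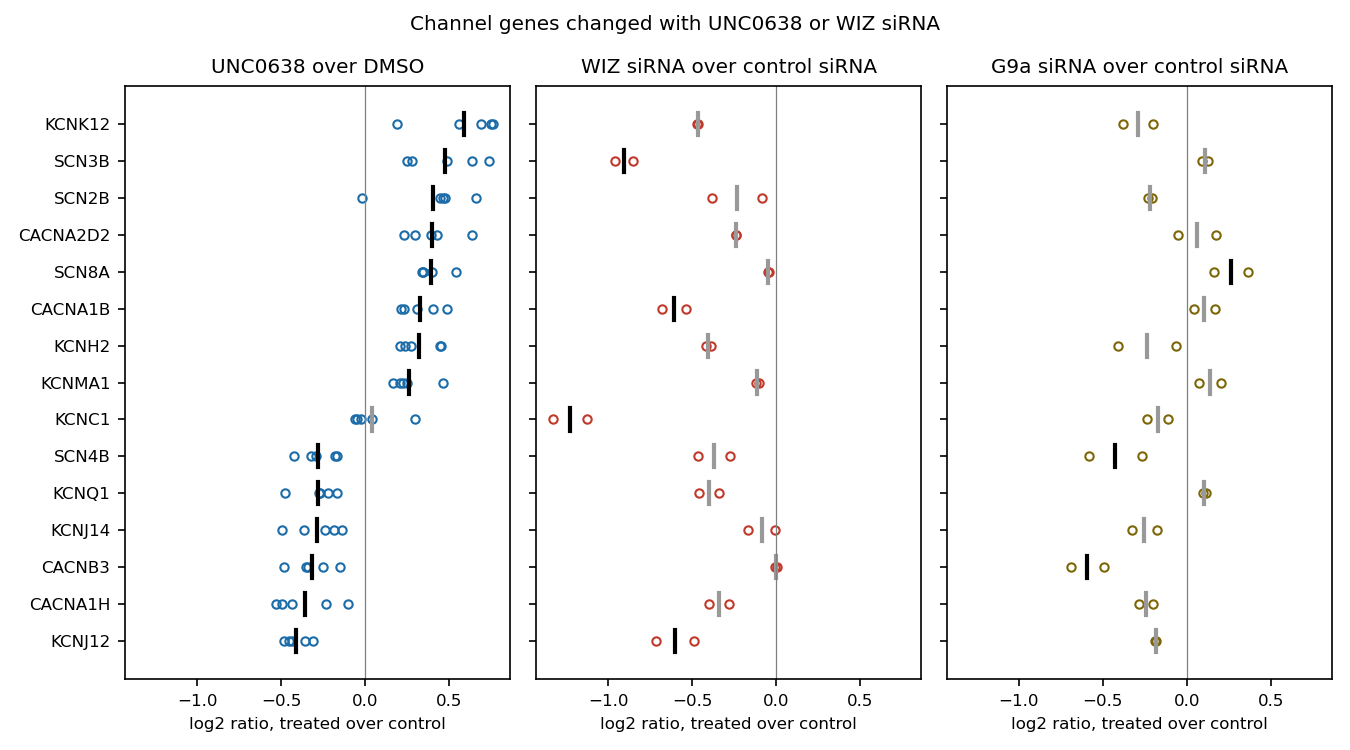
Log2 ratio of treated over control RNA (x axis) for channel genes changed with UNC0638 or WIZ siRNA. Circles are biological replicates (5, 2 and 2) and vertical bars are their means, black where the adjusted p was under 0.05 and grey where it was not. Under WIZ siRNA no gene shown that changed with UNC0638 has a mean above 0, and CACNB3, SCN8A and KCNJ14 lie within 1 SE of 0.

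WIZ siRNA lowered 1 potassium channel with a voltage sensor, 1 inward rectifier, 1 sodium channel beta subunit and 1 calcium channel pore, and raised 0. At an unadjusted p under 0.05 in limma, 17 members were lower and 1 higher. The share of all features at that unadjusted threshold was not computed. Past the adjusted threshold, all features also leaned to falls (155 lower, 23 higher). KCNC1, which encodes a fast delayed rectifier of rapidly firing neurons, had the largest fall, at -1.31 and -1.17 on arrays with the WIZ siRNA RNA in Cy3 and at -1.35 and -1.08 with it in Cy5. All 4 arrays lay in a narrow range (mean -1.23 ± 0.14, SD, n = 2, a 2.34-fold fall, adjusted p = 0.00116). A further KCNC1 probe also averaged -1.09 ± 0.09, and another that was too dim to be tested averaged -0.31 ± 0.18. KCNC1 kept its call under all 10 alternatives, and it averaged 0.04 ± 0.15 with UNC0638 (n = 5, adjusted p = 0.756).

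SCN3B was at -1.51 and -1.36 with the WIZ siRNA RNA in Cy3 and at -0.20 and -0.56 with it in Cy5. Its size thus depended on the dye, although all 4 arrays were below 0 (mean -0.91 ± 0.07, n = 2, adjusted p = 0.0134). CACNA1B was at -0.56, -0.73, -0.51 and -0.62, similar in both orientations (mean -0.61 ± 0.10, adjusted p = 0.0196), with WIZ siRNA RNA above background on 2 of 4 arrays and control RNA on 4 of 4. Its further probe averaged -0.13 ± 0.05. KCNJ12 was at -1.14 and -0.81 in Cy3 and at -0.30 and -0.18 in Cy5 (mean -0.60 ± 0.16, adjusted p = 0.0134). SCN3B, CACNA1B and KCNJ12 each lost the call without replicate 1 and without replicate 2 of WIZ siRNA. The largest changes that did not pass were KCNIP3, a calcium-binding auxiliary subunit, at -1.11 and -0.37 in the 2 replicates (adjusted p = 0.0803), and SCN4A, the skeletal muscle sodium channel, at 0.47 and 0.32 (adjusted p = 0.239).

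Members that UNC0638 changed were compared with WIZ siRNA in the difference of the 2 treatments' means, since a call in one and not in the other does not show a difference. All 9 members raised by UNC0638 had a mean below 0 under WIZ siRNA, and all 6 lowered by UNC0638 did too, beside 63 of all 112 members. Among them CACNB3 (-0.0002, SE 0.09), SCN8A (-0.05, SE 0.08) and KCNJ14 (-0.09) lay within 1 SE of 0. The difference passed for 6 of the 112 members (5.36%), against 0.84% of all features (0.0934% higher, 0.747% lower), and each was lower with WIZ siRNA than with UNC0638. SCN3B was at -0.85 and -0.96 under WIZ siRNA against a mean of 0.48 under UNC0638, a difference of -1.38 (SE 0.14, adjusted p = 0.00281). KCNC1 differed by -1.27 (SE 0.12, adjusted p = 0.00188) and KCNK12 by -1.06 (SE 0.15, adjusted p = 0.0144). CACNA1B differed by -0.94 (SE 0.10, adjusted p = 0.00429) and KCNH2 by -0.72 (SE 0.12, adjusted p = 0.0269). For these 5 genes no WIZ siRNA array overlapped the UNC0638 arrays, but the genes were picked by that difference. The share of all features without overlap was not computed. These values are of each gene's brightest probe. Further probes averaged -0.13 with WIZ siRNA and -0.10 with UNC0638 for CACNA1B, and -0.13 and 0.04 for KCNH2. For KCNC1 a further probe averaged -1.09 and -0.0025. CACNA2D2 fell just short (difference -0.63, adjusted p = 0.0503). The 2 treatments differed in time, agent and control, and the calls of KCNK12 and KCNH2 were lost without replicate 1 and without replicate 2 of WIZ siRNA, those of SCN3B and CACNA1B without replicate 2. Against UNC0638 replicates 1 and 2 alone, of the same array set as WIZ siRNA, all 6 passed.

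**Figure D3:**
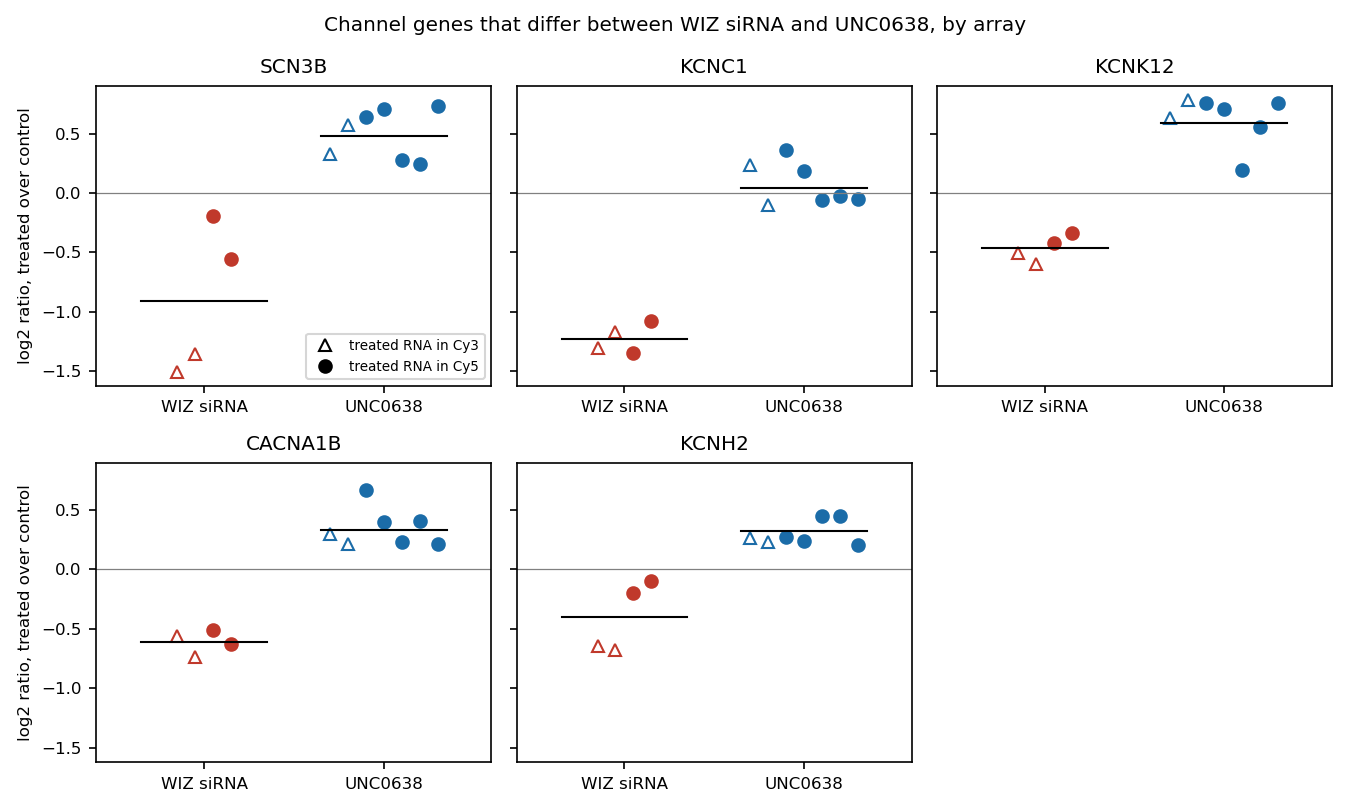
Log2 ratio of treated over control RNA (y axis) on each array for channel genes that differ between WIZ siRNA (4 arrays) and UNC0638 (7 arrays). Open triangles carry the treated RNA in Cy3 and filled circles in Cy5, and black lines are means over replicates. The genes were picked by this difference, and in each panel every WIZ siRNA array lies below every UNC0638 array. SCN3B and KCNH2 are lower in Cy3 than in Cy5 under WIZ siRNA.

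Promoters are shown for the members of this set that matched the RefSeq promoter table of GRCh38.p14, CACNA1B, KCNC1 and KCNH2, because they moved together in that difference. Each is the 250 bases before the gene start, read 5′ to 3′ on the gene's strand. Capitals mark every copy of the GC box (GGGCGG), the CCAAT box (CCAAT) and the E-box (CACGTG) on either strand, and neighbouring copies may touch or overlap. CACNA1B lies at chr9:137877532-137877781 on the plus strand, KCNC1 at chr11:17734531-17734780 on the plus strand and KCNH2 at chr7:150978322-150978571 on the minus strand.
CACNA1B: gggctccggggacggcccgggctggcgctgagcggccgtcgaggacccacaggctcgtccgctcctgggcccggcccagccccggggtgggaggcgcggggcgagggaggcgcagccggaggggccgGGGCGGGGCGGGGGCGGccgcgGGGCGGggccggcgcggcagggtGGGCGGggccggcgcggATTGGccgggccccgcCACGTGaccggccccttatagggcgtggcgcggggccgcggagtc
KCNC1: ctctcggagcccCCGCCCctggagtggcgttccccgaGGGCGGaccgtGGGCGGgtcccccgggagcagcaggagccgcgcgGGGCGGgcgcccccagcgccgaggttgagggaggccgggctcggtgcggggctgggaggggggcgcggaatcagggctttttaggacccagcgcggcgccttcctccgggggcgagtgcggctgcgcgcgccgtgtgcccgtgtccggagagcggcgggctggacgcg
KCNH2: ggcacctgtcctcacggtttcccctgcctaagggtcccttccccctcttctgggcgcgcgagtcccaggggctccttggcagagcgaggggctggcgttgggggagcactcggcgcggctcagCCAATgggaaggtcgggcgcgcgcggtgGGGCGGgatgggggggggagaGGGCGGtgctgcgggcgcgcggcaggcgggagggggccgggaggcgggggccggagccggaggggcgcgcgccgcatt
The CACNA1B promoter held 5 GC boxes and 39 CpG dinucleotides at 85.2% G + C, KCNC1 held 4 and 36 at 79.2%, and KCNH2 held 2 and 29 at 77.2%. The median of 95 channel gene promoters matched was 16 CpG, and that of 27305 promoters in the table was 11. A GC box stood in 57.9% of the channel gene promoters and in 42.3% of all, a CCAAT box in 29.5% and 33%, and an E-box in 5.26% and 6.49%. The left part of the element bound by REST, a repressor of neuronal genes (TTCAGCACC), stood in 3 channel gene promoters (CACNG3, KCNH6 and KCNK3), 3.16% against 0.3% of all. The right part of the same element stood in 0 of the 95 channel gene promoters, against 0.231% of all. CACNG3 and KCNK3 passed in no treatment, and KCNH6 was not tested. Matches are descriptions of the promoter letters only.

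G9a siRNA gave 25 calls among the members, the highest count of the 3 treatments. At 22.3% of those tested, this was below the 33.2% of all features called with G9a siRNA. KCNC4, a rapidly inactivating channel of the KCNC subfamily, was at -0.83 and -1.02 (mean -0.92 ± 0.14, SD, n = 2, a 1.89-fold fall, adjusted p = 0.00595). On the same probe UNC0638 replicates 3 and 5 read -0.53 and -0.58, and the others lay between -0.02 and 0.19. KCNG1, an electrically silent modifier subunit, was at -0.26 and -0.73 (adjusted p = 0.0268), and KCNH3 at -0.37 and -0.58 (adjusted p = 0.00497). A further KCNG1 probe averaged -0.10 ± 0.07. KCND2, an A-type channel, and KCNS3, another silent subunit, rose by 0.46 and 0.40 (adjusted p = 0.0371 and 0.0161).

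The inward rectifier KCNJ2, which holds the resting potential in heart and skeletal muscle, had the largest rise, at 0.82 and 1.10 (mean 0.96 ± 0.20, a 1.95-fold rise, adjusted p = 0.00289). UNC0638 replicate 3 read 0.52, and the other UNC0638 replicates lay between -0.03 and 0.15. KCNJ11, the pore of the ATP-sensitive channel of pancreatic beta cells, and KCNJ4 were lower. KCNJ11 was at -0.65 and -0.71 (adjusted p = 0.0179), a mean fall of 1.6-fold. Its G9a siRNA RNA was not well above background on either array, so that the size is uncertain. With the dye effect of the swapped pairs subtracted its estimate shrank to -0.39 and its call was lost (adjusted p = 0.167). KCNJ4 was at -0.54 on both (adjusted p = 0.00538). Of the remaining potassium genes, KCNK7 was at -0.40 and -0.80 (adjusted p = 0.0363), and the auxiliary subunits KCNIP3 and KCNMB4 at means of -0.45 and -0.35 (adjusted p = 0.0458 and 0.0199). KCNN1, a small-conductance calcium-activated channel, averaged -0.28 (adjusted p = 0.0143), with its G9a siRNA RNA above background on 0 of 2 arrays. With the dye effect subtracted KCNN1 stood at -0.16 (adjusted p = 0.429). KCNK17 and KCNMB2 passed the test as higher, yet both RNAs were below background on both G9a siRNA arrays, so that no fold is given, and KCNT2 was above it only in 1 control RNA.

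Sodium channel genes held 3 G9a siRNA calls of 12 (25%) and calcium channel genes 5 of 25 (20%), against 33.2% of all features. SCN4B averaged -0.43 ± 0.22 (adjusted p = 0.0103). SCN8A averaged 0.26 ± 0.14 (adjusted p = 0.032), the only member called higher with both UNC0638 and G9a siRNA, while its further probe averaged -0.17 ± 0.18. With the dye effect subtracted SCN8A stood at 0.33 (adjusted p = 0.0661) and lost this G9a siRNA call. It also lost the call under median centring and with the G9a siRNA replicates only. Of 4 calcium channel beta subunits, 2 were called higher and 1 lower. CACNB2 was at 0.49 and 0.57 (adjusted p = 0.00721), with its second probe at -0.02 ± 0.06. CACNB4 was at 0.22 and 0.55 (adjusted p = 0.0128), a mean rise of 1.3-fold. Its G9a siRNA RNA was above background on 1 of 2 arrays and its control RNA on 0, so that the size is uncertain. CACNB3 was at -0.49 and -0.69 (adjusted p = 0.00309). All 3 lost the call with the dye effect subtracted, at 0.28 for CACNB2 (adjusted p = 0.244), 0.33 for CACNB4 (adjusted p = 0.0513) and -0.33 for CACNB3 (adjusted p = 0.146). The pore gene CACNA1C and the gamma subunit CACNG6 were both at a mean of -0.38 (adjusted p = 0.0179 and 0.0286), and lost the call with the dye effect subtracted, at -0.39 and -0.205 (adjusted p = 0.0568 and 0.259). Further CACNA1C probes did not show the fall, at means of 0.19, -0.04 and 0.03 with G9a siRNA.

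The count of G9a siRNA calls changed with the handling of dye and with the replicates used. On the WIZ siRNA arrays, 38 of the 112 members, and 14 of the 25 called with G9a siRNA, had 1 sign in both Cy3 arrays and the opposite sign in both Cy5 arrays. The share of all features with such opposite signs was not computed, so these counts say nothing particular to channel genes. KCNJ4, for example, read 0.38 and 0.77 with the WIZ siRNA RNA in Cy3 against -0.61 and -0.52 with it in Cy5. With the dye effect of the swapped pairs subtracted, 10 of the 25 members still passed, as did 15.4% of all features. The swapped pairs were all of the other array set, so that the dye effect on the G9a siRNA arrays was not itself measured. Among the 10 members were SCN4B, KCNJ2, KCNK17, KCNT2, KCNC4, KCNG1 and KCNMB4. The other 15 lost the call, and among these KCNJ4 then stood at -0.21 (adjusted p = 0.448), KCND2 at 0.16 (adjusted p = 0.447) and KCNS3 at 0.24 (adjusted p = 0.286). Without replicate 2 of G9a siRNA 0 members passed in limma, as did 0% of all features, with 19 members at an unadjusted p under 0.05, and without replicate 1 there were 14. Centring arrays on their median in place of loess split the calls into 5 higher and 25 lower. UNC0638 replicate 3 had the sign of the G9a siRNA call for 24 of the 25 members, against 14 to 19 of 25 for the other UNC0638 replicates.

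**Figure D4:**
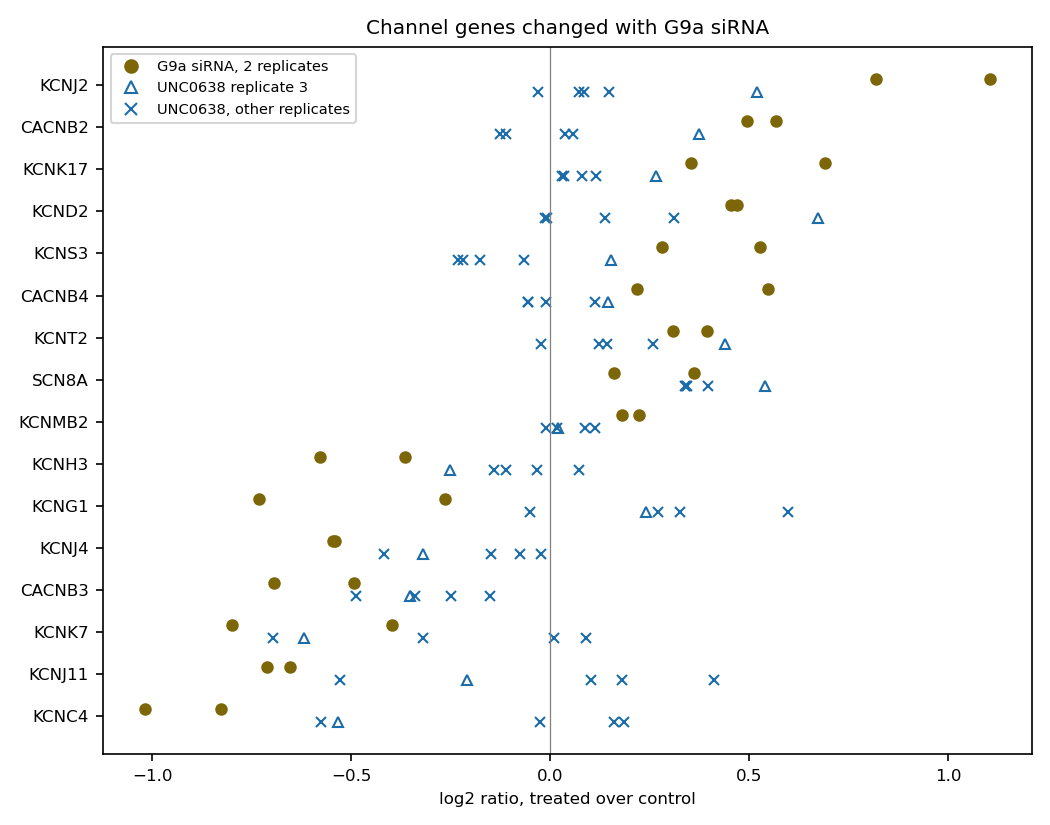
Log2 ratio of treated over control RNA (x axis) for channel genes changed with G9a siRNA. Filled circles are the 2 G9a siRNA replicates, the triangle is UNC0638 replicate 3 and crosses are the other UNC0638 replicates. KCNK17 and KCNMB2 were not well above background in either RNA of the G9a siRNA arrays, so that their circles give no fold. For KCNJ2 the triangle, at 0.52, lies between the G9a siRNA replicates (0.82 and 1.10) and the crosses.

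The difference of G9a siRNA and UNC0638 passed for 11 members (5 higher, 6 lower, 9.82%), against 12.7% of all features (6.07% higher, 6.58% lower). KCNK12 was at -0.20 and -0.38 under G9a siRNA against a mean of 0.59 under UNC0638 (difference -0.88, SE 0.15, adjusted p = 0.0186). KCNJ2 was higher with G9a siRNA by 0.80 (SE 0.15, adjusted p = 0.0197). KCNG1 (-0.77), SCN2B (-0.62) and KCNH2 (-0.56) were lower in G9a siRNA, and KCNS3 (0.51), CACNB2 (0.48) and KCNQ1 (0.39) were higher, with adjusted p of 0.0246 to 0.0449. The further KCNG1 probe averaged -0.10 in both treatments. Further probes of CACNB2 and KCNH2 averaged -0.02 and -0.35 with G9a siRNA, and 0.04 each with UNC0638. KCNK17 also passed as higher, with no size given because both its RNAs were below background on the G9a siRNA arrays. KCNH3 was lower by 0.38 (adjusted p = 0.047). These calls depended on the UNC0638 replicates set against them, with 24 members (and 36.7% of all features) passing against UNC0638 replicates 1 and 2 alone. Against replicates 3 to 5 alone 0 members and 0.00346% of all features passed in limma, with 23 members at an unadjusted p under 0.05. With the array set as a term, 2 passed.

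Other cation channels and channel partners were read against the shares of all features called, 3.65% with UNC0638, 0.615% with WIZ siRNA and 33.2% with G9a siRNA. Of 52 tested pore genes outside the KCN, SCN and CACN families, UNC0638 raised 2, RYR2, the calcium release channel of cardiac sarcoplasmic reticulum, by 1.47 (adjusted p = 0.000208) and TRPM6, a magnesium-permeable channel, by 0.48 (adjusted p = 0.0191), and lowered 0, with 6 at an unadjusted p under 0.05 in limma. WIZ siRNA lowered HCN4, a pacemaker channel, by 0.46 (adjusted p = 0.0166) and raised 0, with 3 higher at an unadjusted p under 0.05. The counts with UNC0638 (2 of 52) and with G9a siRNA (8 higher and 10 lower of 52) were near those shares. Among genes that fell with G9a siRNA were HCN2 (-4.64, adjusted p = 0.00502) and all 3 ORAI genes of store-operated calcium entry (-1.01, -1.45 and -0.50). HCN2 was low in UNC0638 replicate 3, at -4.51. Of 21 tested partners and regulators, UNC0638 raised FGF13 (0.67, adjusted p = 0.000179) and FGF12 (0.53, adjusted p = 0.000858), intracellular proteins that bind sodium channels, and GEM (0.63, adjusted p = 0.00494), a small GTPase that inhibits calcium channels. It lowered LRRC26 (-0.62, adjusted p = 0.00232), an auxiliary subunit of the KCNMA1 channel. WIZ siRNA changed 0 of the 21 in limma, with 5 at an unadjusted p under 0.05. RYR2, HCN4, FGF12 and FGF13 were each lower with WIZ siRNA than with UNC0638 (differences -1.52, -0.55, -0.74 and -0.90, adjusted p = 0.0119, 0.0109, 0.0114 and 0.00297). REST did not pass in any treatment, at 0.16 with UNC0638, 0.12 with WIZ siRNA and 0.06 with G9a siRNA. The pore list's median was 0.008, 0.016 and -0.016, and that of the partners 0.077, 0.021 and 0.055, in the same order.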

How the data were processed

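Total RNA from treated and control HEK293T cells was hybridised to 13 Agilent human arrays of 62976 spots. Spot and background intensities were used as deposited, without correction by the authors, per the file headers, with channel 1 read as Cy3 and channel 2 as Cy5. The files do not state this; it was inferred from WIZ and EHMT2 on the siRNA arrays and applied to all arrays. The files also hold the authors' normalized log2 ratio, per the file headers, and a deposited table holds the authors' processed log10 ratios, whose direction was not stated. Set against each array's own log2 ratio, that table ran control over treated on the arrays of UNC0638 replicates 1 and 2 and of WIZ siRNA, and was turned to match. The correction and normalization behind those ratios are not stated in the labels or headers.

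Intensities were background-corrected (normexp, offset 50) and loess-normalized within arrays in limma 3.58.1 (R 4.3.3), with the 4259 control spots at weight 0. Spots of a probe were averaged, then both orientations of a replicate, giving 9 replicates. A probe was kept if its signal exceeded the background median by 2.6 background SDs on at least 50% of the arrays of any 1 RNA group. One fit over 28923 features gave a mean per treatment against 0 and both differences, with 6 residual and 3.33 prior degrees of freedom. Arrays carry no read depth, so that their number limits the precision. Probe positions are those of the files, on build 37.1. The fit was tested on simulated data.

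Members and lists were chosen with earlier results of these data known. Text names every member past the threshold where 20 or fewer pass, otherwise the 10 largest each way, plus, per class, the brightest genes and the largest that did not pass; KCNN1, CACNG6 and genes of the related lists were named after their values were seen. Some members that the rule names are not reported here. Alternatives changed the background correction, normalization, detection filter, dye, array set, replicates used and replicate block.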

Additional observations from a re-analysis of the deposited data

Results flagged for a closer look

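Among UNC0638 replicates, 3 single values lay farther from the others than Dixon's test allows for 5 samples, which chance gives in about 1 of 20 groups. Every named member was checked in this way, so that a few such values are due by chance alone. KCNMA1 was at 0.465 in replicate 3, KCNC1 at 0.297 in replicate 1 and CACNA2D3 at -0.345 in replicate 5. The difference of WIZ siRNA and UNC0638 passed limma's test for members that include SCN3B (-1.383), KCNC1 (-1.266), KCNK12 (-1.056), CACNA1B (-0.936) and KCNH2 (-0.725). The difference of G9a siRNA and UNC0638 passed for members that include KCNK12 (-0.879), KCNJ2 (0.804), KCNG1 (-0.775), SCN2B (-0.622), KCNH2 (-0.558), KCNS3 (0.512), CACNB2 (0.483) and KCNQ1 (0.387). KCNK17 passed too (0.417), a value that gives no fold because both its RNAs were below background on the G9a siRNA arrays. All are values of a gene's brightest probe, and the further probes of CACNA1B, KCNH2, KCNG1 and CACNB2 given above differed less between treatments. Against the UNC0638 replicates of the same array set, all 6 of the first differences passed and 0 of the second, with 23 members at an unadjusted p under 0.05 in limma. The part of treatment time, 72 h for the siRNAs against 48 h for UNC0638, was not tested.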

How the results depend on the processing

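No member past the threshold turned its direction in any alternative run on it. With UNC0638, 15 members passed, against 8 under median centring (7 higher, 1 lower), where 2.83% of all features passed. The authors' log2 ratio gave 8 (1.88% of all features) and the authors' log10 table (43 members with values) 8 (4.23%). Fitting the UNC0638 replicates only gave 6 (1.49%). UNC0638 replicates 1 and 2 alone gave 7 (2.59%), replicates 3 to 5 alone 9 (5.88%), and leaving out each replicate 9 to 11 (2.15% to 3.08%). With WIZ siRNA, 4 passed, against 1 with the authors' log2 ratio, 15 with the dye effect subtracted (3.34% of all features), 28 with its own replicates only (where 23.7% of all features passed), and 1 to 2 leaving out each. With G9a siRNA, 25 passed, against 10 with the dye effect subtracted (15.4% of all features). Among features above background on all arrays, 16 of 39 members passed, beside 52.9% of all such features. Fewer passed when either replicate was left out, and median centring gave 30. For WIZ siRNA minus UNC0638, 6 passed, against 12 with the dye effect subtracted (2.81% of all features) and 10 with the replicate block (1.84%). Leaving out each UNC0638 replicate gave 5 to 8 (0.491% to 1.22%), and fewer than 6 passed when either WIZ siRNA replicate was left out. For G9a siRNA minus UNC0638, 11 passed, against 3 with the authors' log2 ratio, 2 with the array set as a term, 2 with own replicates only, 24 with UNC0638 replicates 1 and 2 alone (36.7% of all features), 0 with replicates 3 to 5 alone (0.00346%), 24 with the replicate block (36.8%), and 0 to 21 leaving out each (21 without UNC0638 replicate 3). Median centring split that difference into 2 higher and 14 lower.

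Replicate numbers were not used to pair the samples in the main fit. Deviations of same-numbered samples correlated at -0.0101 and 0.0154 (WIZ siRNA with UNC0638) and 0.366 and -0.287 (G9a siRNA with UNC0638). With 2 replicates per siRNA, whose deviations are equal and opposite, these values cannot decide whether the samples were paired. The cause of the moves between alternatives was not tested, apart from smaller counts where fewer members or samples entered. The authors' ratios moved some members by over 1.5 times, such as KCNMA1 with UNC0638 (0.73 with the authors' log2 ratio, 0.26 here). A correction for probe G + C content was not run, because 73.2% of tested member probes had a sequence.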
